A study of Mus musculus with 3072 samples.

Results

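The genes of MHC class II antigen presentation were followed in single mouse microglia as 7 named rows of a read count table of 29474 genes: Cd74, H2-Aa, H2-Ab1, H2-Eb1, H2-DMa, H2-DMb1 and Ciita. All 7 had reads. Microglia are the macrophages that live in the brain, and here they came from male mice as live CD11b-positive single cells whose polyadenylated RNA was read with a modified SmartSeq2 protocol. In all, 1713 cells were used. APP/PS1-ApoeKO mice of 18 months gave hippocampus (18.7% of the cells, 151578978 reads) and cortex (9.87%, 74767907 reads). APP/PS1 mice of 17 months gave hippocampus (15.9%, 156047722 reads) and cortex (18.2%, 188282466 reads). Cortex alone came from C57BL/6-ApoeKO mice (18.3%, 198704815 reads) and C57BL/6 mice (19.03%, 241536311 reads), both of 18 months. APP/PS1 stands for APPswe/PS1dE9, a pair of human disease transgenes under which mice form amyloid plaques, and ApoeKO for a null allele of Apoe bred in from a C57BL/6 line, without which the lipid carrier apolipoprotein E is not made. APP/PS1 mice of 18 months were not analysed here, so in the knockout comparisons within APP/PS1 the genotype, the sequencing lane and 1 month of age cannot be told apart. The amyloid comparison with Apoe intact likewise sets 17 months against 18 months and lanes 41 and 42 against lanes 37 and 38, and that without Apoe sets lane 34 against lanes 37 and 38, so amyloid and lane cannot be told apart in either.

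MHC class II molecules are pairs of an alpha and a beta chain that show peptides from endocytosed protein to CD4 T cells. The invariant chain, encoded by Cd74, fills the groove until the molecule reaches an endosome, where the H2-DM pair (H2-DMa and H2-DMb1) exchanges the remnant of the invariant chain for a peptide. Ciita is the coactivator that switches the whole set on through the X and Y boxes of the class II promoters. Resting microglia carry little class II, and cells near amyloid plaques or under interferon are known to carry more. C57BL/6 mice have no functional H2-Ea, so H2-Eb1 RNA in this strain does not give a surface I-E molecule.

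Each group was 1 sample, since the labels name no animals. Levels are RPM, the reads of a gene per 1000000 reads of a group's cells, ratios between groups have no replicate check, and the 95% intervals cover counting error only. SmartSeq2 reads carry no molecular identifiers, so reads are not independent molecules and these intervals are narrower than the true error. Median reads per cell lay between 442917 and 445290 in the APP/PS1-ApoeKO groups, between 581149 and 615541 in the APP/PS1 groups, and at 689276 and 765703 in C57BL/6-ApoeKO and C57BL/6 cortex. Shares of cells with a read are therefore given with each cell thinned to 100000 reads, which 1705 of 1713 cells had. Apoe, the targeted gene, was read at 0.0669 to 2.96 RPM in the ApoeKO groups and at 485 to 13406 RPM in the others. All 12 microglia markers were read, at 53205 to 65293 RPM in sum. Of the defining markers of other cells that use class II, Ms4a1 and Pax5 (B cells), Ccr7 and Clec10a (dendritic cells) and Lyve1 (border macrophages) had 0 reads. Others of these lists were read, among them Ighm of the B cell list in 66.4% of cells, Cd79b in 6.71%, Flt3 in 4.03%, Folr2 in 6.597% and Mrc1 in 0.934%. The B cell list summed to 418.96 to 667.4 RPM over the groups, with Ighm alone at 389.9 to 636.1 RPM. The dendritic cell list summed to 4.97 to 13.4 RPM, the border macrophage list to 6.71 to 20.6 RPM and the monocyte list to 3.38 to 28.7 RPM, highest in APP/PS1-ApoeKO cortex, and the part of these cells in the results was not tested. At least 2 markers of 1 other cell type were read at 10 RPM or more in 89 cells, 77 of them through Ighm and Cd79b of the B cell list.

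Of the members, 5 lie together in the genome. H2-Aa, H2-Ab1, H2-Eb1, H2-DMa and H2-DMb1 are found in the class II region of chromosome 17 (GRCm38), from H2-DMa at chr17:34119541-34139101 and H2-DMb1 at chr17:34153072-34160230 to H2-Ab1 at chr17:34257689-34269419, H2-Aa at chr17:34282744-34287823 and H2-Eb1 at chr17:34305867-34316674. RefSeq start windows were at hand for 4 of the 7 members, and the 120 bases before the start are shown for the H2-Aa and H2-Eb1 promoters because these chains differed most between groups. Capitals mark an X-like stretch (AAC, then 2 or 3 free bases, then TGA, 1 free base and G) and Y-like stretches (ATTGG), on either strand. Both kinds were searched on both strands, and their letters do not overlap in these windows. H2-Aa is given at chr17:34287824-34287943, minus strand, and H2-Eb1 at chr17:34305747-34305866, plus strand, both in GRCm38.p6.

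H2-Aa: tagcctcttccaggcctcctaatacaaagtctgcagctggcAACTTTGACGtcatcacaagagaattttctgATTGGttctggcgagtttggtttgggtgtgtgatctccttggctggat

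H2-Eb1: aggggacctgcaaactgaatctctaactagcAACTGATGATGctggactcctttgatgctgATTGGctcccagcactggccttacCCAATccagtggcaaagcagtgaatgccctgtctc

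In H2-Aa the X-like stretch began 79 bases before the start and was followed by the Y-like stretch after a gap of 21 bases. In H2-Eb1 the X-like stretch began 89 bases before the start and the gap was 19 bases. H2-DMb1 held AACTGATGATG, the same letters as H2-Eb1, 92 bases before its start with a gap of 20 bases to a Y-like stretch. An X-like stretch was found in 4.68% of 32851 RefSeq windows of 250 bases, a Y-like stretch in 33.8%, and the X-like stretch followed on its strand by a Y-like one after 10 to 30 bases in 0.195%, or 64 windows. The windows before the H2-DMa starts at 34122832 and 34125518 held no such pair, but coding H2-DMa transcripts also start at 34135628 and 34135654 in GENCODE, and the sequence before those was not used here. These are matches of letters, not measured sites.

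Cd74 (chr18:60803848-60812652) had the highest level among the classical genes of APP/PS1 mice, as Cd74 and the chain genes H2-Aa, H2-Ab1 and H2-Eb1 are called below. Its level was 45.2 RPM in APP/PS1-ApoeKO hippocampus, 22.4 RPM in APP/PS1-ApoeKO cortex, 249.1 RPM in APP/PS1 hippocampus, 224.997 RPM in APP/PS1 cortex, 28.2 RPM in C57BL/6-ApoeKO cortex and 29.3 RPM in C57BL/6 cortex. Both APP/PS1 groups stood far above the other 4, which lay close together. The share of cells with a Cd74 read was also highest in both APP/PS1 groups, though the groups did not keep the order of their levels. It was 9.09% (95% exact interval 6.17 to 12.8) in APP/PS1-ApoeKO hippocampus, 12.4% (7.86–18.4) in APP/PS1-ApoeKO cortex, 22.4% (17.6–27.9) in APP/PS1 hippocampus, 30.5% (25.5–35.99) in APP/PS1 cortex, 7.47% (4.79–10.99) in C57BL/6-ApoeKO cortex and 11.04% (7.86–14.96) in C57BL/6 cortex. The intervals of both APP/PS1 groups overlap each other, and that of the hippocampus also overlaps that of APP/PS1-ApoeKO cortex. Per positive cell the spread was smaller, with medians of 199.7 RPM in APP/PS1-ApoeKO hippocampus, 146.3 RPM in APP/PS1-ApoeKO cortex, 323.9 RPM in APP/PS1 hippocampus, 244.1 RPM in APP/PS1 cortex, 186.9 RPM in C57BL/6-ApoeKO cortex and 98.01 RPM in C57BL/6 cortex. At full depth the shares were 10.3% and 13.02% in the APP/PS1-ApoeKO hippocampus and cortex, 22.7% and 32.8% in the APP/PS1 hippocampus and cortex, 8.63% in C57BL/6-ApoeKO cortex and 11.96% in C57BL/6 cortex.

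The chain genes were rarer. H2-Aa, the alpha chain of I-A, had a level of 14.6 RPM in APP/PS1-ApoeKO hippocampus and 0.0802 RPM (6 reads) in APP/PS1-ApoeKO cortex, of 48.4 RPM in APP/PS1 hippocampus and 23.97 RPM in APP/PS1 cortex, and of 2.60 RPM in C57BL/6-ApoeKO cortex and 0.0124 RPM (3 reads) in C57BL/6 cortex. In APP/PS1-ApoeKO hippocampus 1 cell held 91.8% of the H2-Aa reads, and in C57BL/6 cortex 2 cells held all of them. The thinned share of cells with H2-Aa was 1.25% and 0.592% in the APP/PS1-ApoeKO hippocampus and cortex, 5.15% (2.84 to 8.49) and 5.14% (2.97 to 8.22) in the APP/PS1 hippocampus and cortex, 1.30% in C57BL/6-ApoeKO cortex and 0% in C57BL/6 cortex, where a count of 0 cells allows a share of up to 0.920%, taken as 3 cells of the total. Positive cells had a median of 337.9 RPM in APP/PS1 hippocampus and 322.1 RPM in APP/PS1 cortex, but 4.76 and 5.33 RPM in the APP/PS1-ApoeKO hippocampus and cortex.

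H2-Eb1, the beta chain of I-E, was high in both APP/PS1 groups and low in the other 4. Its level was 2.49 RPM in APP/PS1-ApoeKO hippocampus, 1.48 RPM in APP/PS1-ApoeKO cortex, 68.7 RPM in APP/PS1 hippocampus, 38.1 RPM in APP/PS1 cortex, 1.07 RPM in C57BL/6-ApoeKO cortex (all in 1 cell) and 1.26 RPM in C57BL/6 cortex. The thinned share was 1.57% and 1.18% in the APP/PS1-ApoeKO hippocampus and cortex, 6.99% (4.26 to 10.7) and 5.14% (2.97 to 8.22) in the APP/PS1 hippocampus and cortex, 0.325% in C57BL/6-ApoeKO cortex and 1.53% in C57BL/6 cortex. Positive cells had a median of 696 RPM in APP/PS1 hippocampus and 298.03 RPM in APP/PS1 cortex, against 61.5 RPM in the 6 positive cells of C57BL/6 cortex.

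H2-Ab1, the beta chain of I-A, varied least among the chains. It was read at 25.4 and 23.9 RPM in APP/PS1-ApoeKO hippocampus and cortex, at 76.7 and 52.4 RPM in APP/PS1 hippocampus and cortex, at 29.8 RPM in C57BL/6-ApoeKO cortex and at 15.3 RPM in C57BL/6 cortex. Its thinned share was lowest in APP/PS1-ApoeKO cortex, with 4.73%, and highest with 10.3% (7.15–14.2) in APP/PS1 cortex, and the intervals of all 6 groups overlapped. Its median in positive cells was 173.99 RPM in APP/PS1-ApoeKO hippocampus and between 284.05 and 540.3 RPM in the other groups.

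H2-DMa, the alpha chain of the peptide-loading pair, ran the other way. Its level was 296.99 RPM in APP/PS1-ApoeKO hippocampus, 236.6 RPM in APP/PS1-ApoeKO cortex, 105.4 RPM in APP/PS1 hippocampus, 151.8 RPM in APP/PS1 cortex, 403.7 RPM in C57BL/6-ApoeKO cortex and 382.8 RPM in C57BL/6 cortex. The APP/PS1 groups were lowest, the APP/PS1-ApoeKO groups lay between, and both groups without the transgenes were highest. The thinned share was 46.4% (40.8–52.04) in APP/PS1-ApoeKO hippocampus, 36.7% (29.4–44.4) in APP/PS1-ApoeKO cortex, 22.1% (17.3–27.5) in APP/PS1 hippocampus, 26.7% (21.9–31.97) in APP/PS1 cortex, 58.4% (52.7–64) in C57BL/6-ApoeKO cortex and 53.7% (48.1–59.2) in C57BL/6 cortex. The level in positive cells varied less, with medians of 451 and 488 RPM in the APP/PS1-ApoeKO hippocampus and cortex, 371.6 and 432 RPM in the APP/PS1 hippocampus and cortex, 497 RPM in C57BL/6-ApoeKO cortex and 554 RPM in C57BL/6 cortex. A smaller share of cells with a read and a lower level per cell both lower a group's RPM, and reads from 1 cell do not tell a cell without the RNA from one whose RNA was missed.

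H2-DMb1, the partner chain of H2-DMa, had a flatter range. Its RPM were 107.8 in APP/PS1-ApoeKO hippocampus, 76.6 in APP/PS1-ApoeKO cortex, 78.98 in APP/PS1 hippocampus, 89.1 in APP/PS1 cortex, 127.9 in C57BL/6-ApoeKO cortex and 136.9 in C57BL/6 cortex. Its thinned share ran from 25.7% (20.6–31.4) in APP/PS1 hippocampus to 38.7% (33.3–44.2) in C57BL/6 cortex, and its median in positive cells from 214.9 to 294.2 RPM. Of the distinct 50-base stretches of its transcripts, 22.7% also occur in H2-DMb2, a near copy, so reads could be split between them. For H2-DMa 8.43% of stretches are shared with the antisense gene Brd2, which was read at 73.04 to 121.1 RPM, and whether counting used strand is not stated in the sources at hand.

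Ciita (chr16:10480059-10528418) was close to unread. It had 0.605 RPM, from 2 cells, in APP/PS1 cortex, 7 reads in 1 cell of C57BL/6 cortex, 2 reads in 1 cell of APP/PS1 hippocampus and 1 read in 1 cell of APP/PS1-ApoeKO cortex. APP/PS1-ApoeKO hippocampus and C57BL/6-ApoeKO cortex had 0 reads, which by the same limit of 3 cells allows a share of up to 0.935% and 0.958% of cells. At this depth no difference in Ciita was detectable between groups.

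Levels were also divided by exon length in kilobases, taken over all annotated transcripts of a gene. By this measure, and by RPM, Cd74 was the highest member in APP/PS1 hippocampus and H2-DMa in C57BL/6 cortex. The length was 3448 bases for H2-DMa, 3798 for H2-Aa and 1681 for H2-DMb1. Which transcripts were read was not tested, so the order of the other genes can change with the length used. In APP/PS1 hippocampus Cd74 stood at 148.3, H2-DMb1 at 46.98, H2-Eb1 at 35.3, H2-DMa at 30.6, H2-Ab1 at 29.9 and H2-Aa at 12.7 RPM per kilobase. In C57BL/6 cortex H2-DMa stood at 111.03, H2-DMb1 at 81.4, Cd74 at 17.5, H2-Ab1 at 5.95, H2-Eb1 at 0.647 and H2-Aa at 0.00327 RPM per kilobase.

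**Figure D1:**
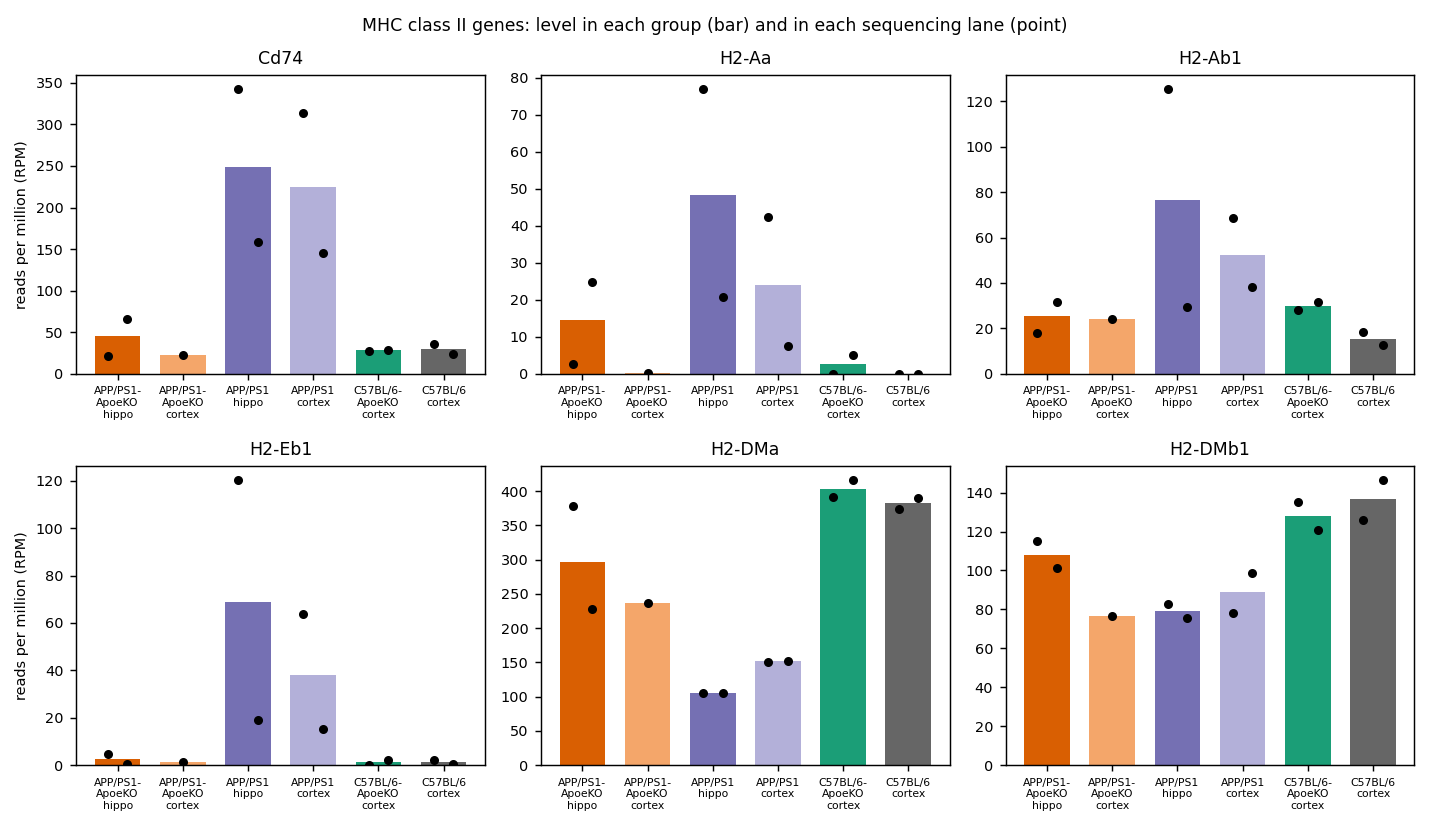
Level (RPM, linear axes) of 6 members in the 6 groups; bars are the level over all cells of a group and points the level in each of its sequencing lanes. The classical genes are high in both APP/PS1 groups, where Cd74 is at 249.1 RPM in hippocampus and 224.997 RPM in cortex, and H2-DMa is lowest there, at 105.4 and 151.8 RPM.

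**Figure D2:**
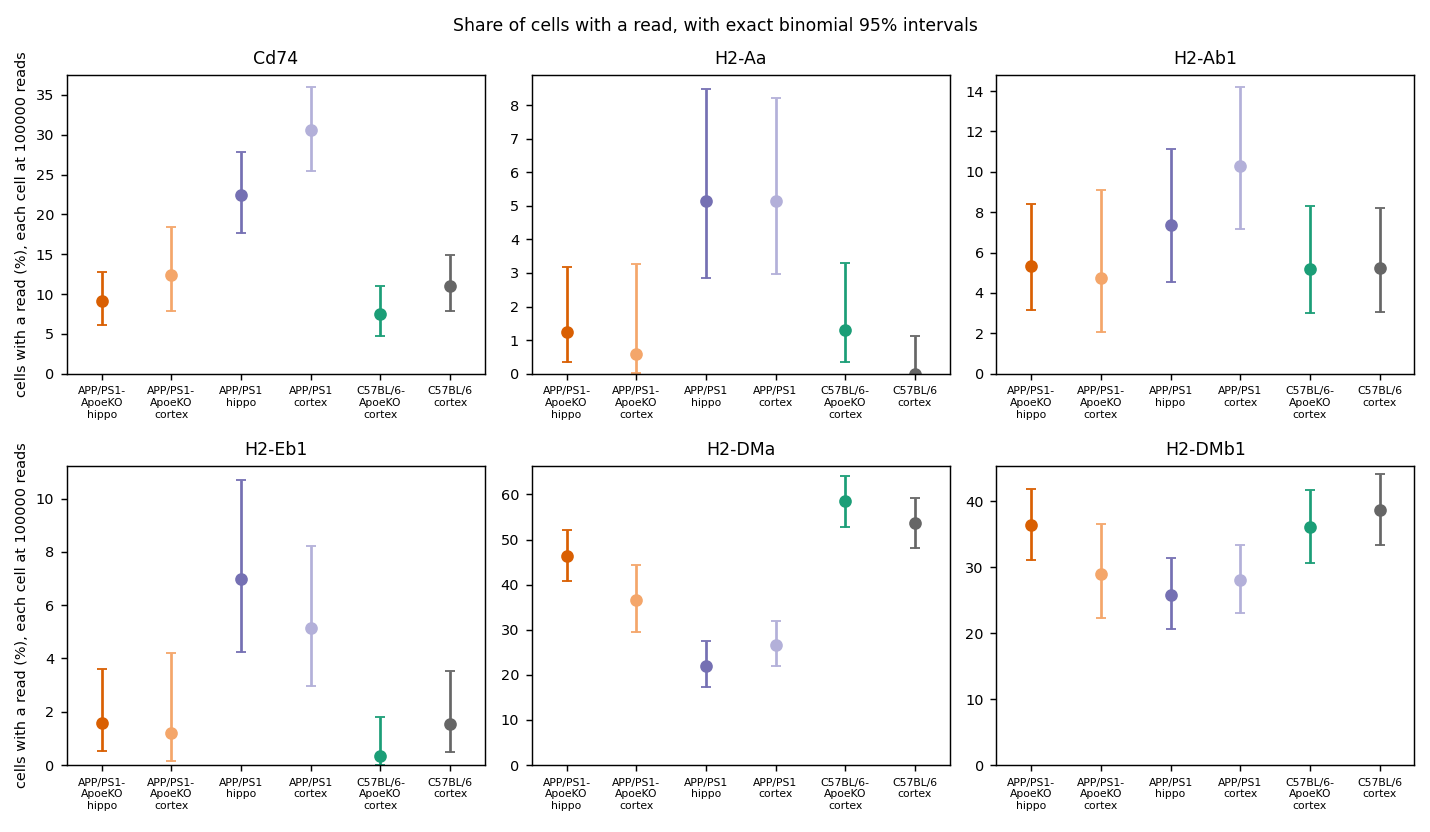
Share of cells with at least 1 read (%), each cell thinned to 100000 reads, for 6 members in the 6 groups; bars are exact binomial 95% intervals, which cover counting of cells only. Cd74 reaches 30.5% in APP/PS1 cortex, and H2-DMa reaches 58.4% in C57BL/6-ApoeKO cortex against 22.1% in APP/PS1 hippocampus.

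For the loss of Apoe in mice with amyloid, cells of APP/PS1-ApoeKO mice were set against those of APP/PS1 mice. In cortex all 4 classical genes were lower in the knockout and H2-DMa was higher. H2-Aa was 298.7-fold lower (137.1 to 814) from 6 reads in the knockout, and H2-Ab1 was 2.19-fold lower. Both values depended on the cells used. In log2 ratios with 0.5 RPM added, Cd74 stood at -3.30, H2-Aa at -5.40, H2-Ab1 at -1.12, H2-Eb1 at -4.28, H2-DMa at 0.64 and H2-DMb1 at -0.22. Of the 6 members with at least 1 RPM, 4 were at least 2-fold lower and 0 at least 2-fold higher, while 12% of 13459 genes passed that fold downwards and 18.9% upwards. Without lane 41 the count of 4 became 3, with H2-Ab1 at -0.66 and H2-Aa at -3.80. It also became 3 with the cells of lane 33, which have no labelled depth, when H2-Ab1 stood at -0.73 and H2-Aa at -4.45. The median log2 ratio was -2.21 over the members and 0.214 over all genes. With TMM scaling the H2-DMa ratio of 0.64 became 0.39. The share of cells differed by -18.1 percentage points for Cd74 and by 9.998 for H2-DMa. The median share of ribosomal RNA reads per cell was 7.63% in APP/PS1-ApoeKO cortex and 13.2% in APP/PS1 cortex, and its part in these ratios was not tested. The summed interferon response list had a median over cells of 189.6 RPM in APP/PS1-ApoeKO cortex and 17.99 RPM in APP/PS1 cortex. Its medians were 187.5 and 18.5 RPM in the hippocampus of these mice. Without amyloid they were 68.9 RPM in C57BL/6-ApoeKO cortex and 0 RPM in C57BL/6 cortex. The part of this list in the ratios was not tested either. Without ribosomal and mitochondrial reads H2-DMa stood at 0.55.

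In hippocampus the same contrast gave log2 ratios of -2.45 for Cd74, -1.70 for H2-Aa, -1.58 for H2-Ab1 and -4.53 for H2-Eb1, against 1.49 for H2-DMa and 0.45 for H2-DMb1. H2-DMa was 2.82-fold higher (2.77 to 2.87) in APP/PS1-ApoeKO than in APP/PS1 hippocampus, and H2-Ab1 3.02-fold lower. Of the 6 members, 4 were at least 2-fold lower and 1 at least 2-fold higher, where 10.1% of 13309 genes were lower and 14.6% higher by that much. The members' median was -1.64 and that of all genes 0.0774. H2-Aa stood at -4.43 without the cell with the most reads of the gene in each group. Without lane 41, which held the higher of the levels of APP/PS1 hippocampus, H2-Ab1 stood at -0.22 and H2-Aa at -0.50, and 2 members in place of 4 were at least 2-fold lower. Without lane 35, H2-Aa was at 24.8 RPM in APP/PS1-ApoeKO hippocampus and 3 members were at least 2-fold lower, H2-Aa no longer among them. Without lane 36, H2-Aa stood at -3.99.

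Without amyloid, C57BL/6-ApoeKO cortex was set against C57BL/6 cortex, and these groups shared both their lanes, 37 and 38. Cd74 stood at -0.05, H2-Eb1 at -0.17, H2-DMa at 0.08 and H2-DMb1 at -0.10 on the log2 scale. H2-Ab1 was 1.95-fold higher in C57BL/6-ApoeKO (log2 ratio 0.94). H2-Aa stood at 2.60, from 516 reads in 6 cells of C57BL/6-ApoeKO against 3 reads in 2 cells of C57BL/6, and all 516 reads came from lane 38. Within lane 37 its log2 ratio was -0.03 and within lane 38 it was 3.44. H2-Eb1 likewise split, at -2.38 within lane 37, where C57BL/6-ApoeKO had 0 reads, and at 1.37 within lane 38. Of the 6 members, 1 was at least 2-fold higher and 0 lower, against a background of 12.9% of 13626 genes higher and 10.4% lower by that much. The count of 1 became 0 within lane 37 and 3 within lane 38, while H2-DMa stood at 0.06 and 0.09 within these lanes.

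Amyloid with Apoe intact, APP/PS1 cortex against C57BL/6 cortex, shares a group with the knockout comparison in APP/PS1 cortex, so that both sets of ratios move with the level in APP/PS1 cortex. Cd74 was 7.67-fold higher in APP/PS1 cortex (log2 ratio 2.92), H2-Ab1 3.43-fold (1.75) and H2-Eb1 30.3-fold (4.46). H2-Aa stood at 5.58 against 3 reads in C57BL/6. H2-DMa was 2.52-fold lower (-1.33) and H2-DMb1 1.54-fold lower (-0.62). Of the 6 members, 4 were higher and 1 was lower by at least 2-fold, where 9.92% of 13356 genes were higher and 13.2% lower by that much. The share of cells differed by 19.5 percentage points for Cd74 and by -26.99 for H2-DMa.

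Amyloid without Apoe, APP/PS1-ApoeKO cortex against C57BL/6-ApoeKO cortex, gave ratios under 2-fold for 3 of the 4 classical genes. Cd74 stood at -0.33, H2-Ab1 at -0.31 and H2-Eb1 at 0.34 on the log2 scale, and H2-Aa at -2.42 from 6 reads against 516. H2-DMa was 1.71-fold lower in APP/PS1-ApoeKO cortex (-0.77) and H2-DMb1 1.67-fold lower (-0.74). Of the 6 members 1 was at least 2-fold lower and 0 higher, where 13.2% of 13614 genes were lower and 13.3% higher. H2-DMa was lower with amyloid in both genotypes, and its share of cells differed by -21.8 percentage points here.

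Between tissues of 1 genotype few members passed 2-fold. The APP/PS1 tissues shared lanes 41 and 42. The APP/PS1-ApoeKO hippocampus came from lanes 35 and 36 and the cortex from lane 34, so there tissue and lane cannot be told apart. In APP/PS1-ApoeKO, hippocampus against cortex, Cd74 stood at 0.999, H2-Ab1 at 0.09, H2-Eb1 at 0.59, H2-DMa at 0.33 and H2-DMb1 at 0.49, and H2-Aa at 4.70 through the 1 cell named above (1.73 without it). Of the 6 members 1 was at least 2-fold higher, where 11.8% of 13461 genes were, and 0 lower, where 14.1% were. In APP/PS1, hippocampus against cortex, Cd74 stood at 0.15, H2-Aa at 0.998, H2-Ab1 at 0.55, H2-Eb1 at 0.84, H2-DMa at -0.52 and H2-DMb1 at -0.17. None of the 6 members (0) passed 2-fold, while 9.30% of 13059 genes did so upwards and 9.97% downwards. H2-Aa lay just under that fold and passed it with 0.1 RPM added.

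**Figure D3:**
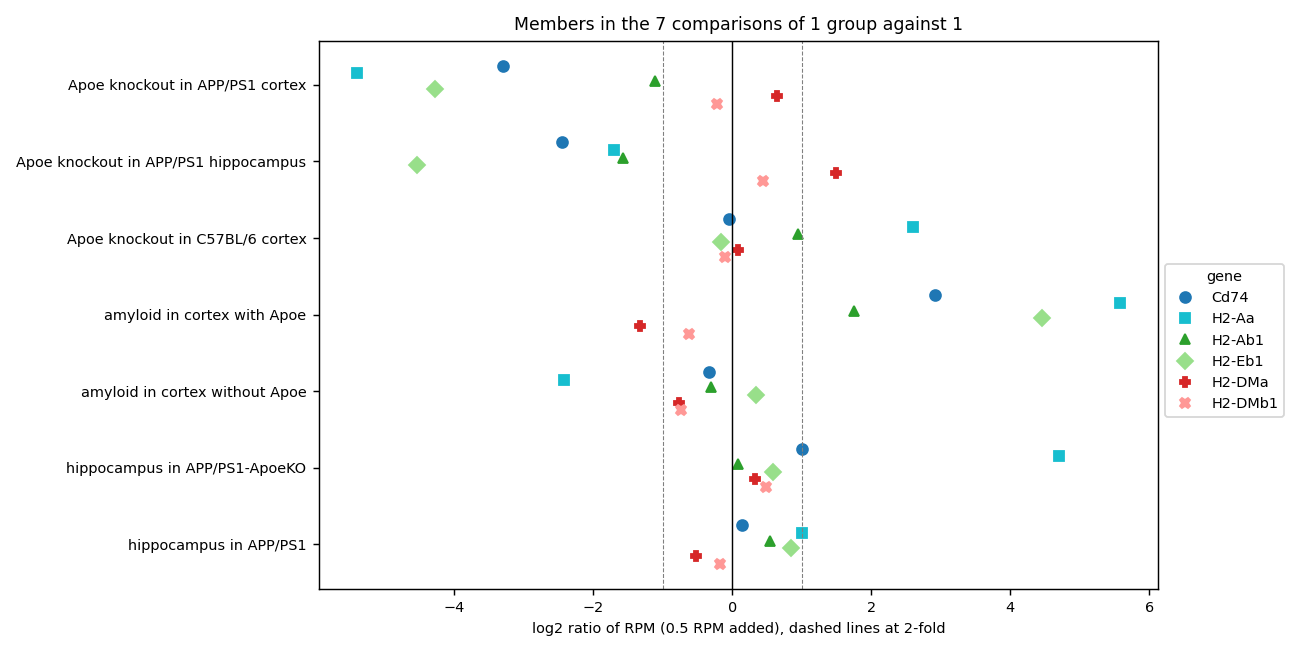
Log2 ratio of RPM (0.5 RPM added) of 6 members in the 7 comparisons of 1 group against 1, the first-named condition over its counterpart; dashed lines mark 2-fold. Cd74 is at -3.30 and H2-DMa at 0.64 for the knockout in APP/PS1 cortex, and at 2.92 and -1.33 for amyloid with Apoe.

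The balance between peptide loading and the classical genes was taken as H2-DMa reads over the summed reads of Cd74, H2-Aa, H2-Ab1 and H2-Eb1 within a group. This ratio needs no scaling between libraries. It was 3.39 in APP/PS1-ApoeKO hippocampus, 4.95 in APP/PS1-ApoeKO cortex, 0.238 in APP/PS1 hippocampus, 0.447 in APP/PS1 cortex, 6.55 in C57BL/6-ApoeKO cortex and 8.35 in C57BL/6 cortex. Classical reads outnumbered H2-DMa reads in the APP/PS1 groups alone among these 6, and in each of their lanes. By lane the ratio was 8.21 (lane 35) and 1.85 (lane 36) in APP/PS1-ApoeKO hippocampus, 0.158 (lane 41) and 0.464 (lane 42) in APP/PS1 hippocampus, 0.309 (lane 41) and 0.739 (lane 42) in APP/PS1 cortex, 7.05 and 6.15 (lanes 37 and 38) in C57BL/6-ApoeKO cortex and 6.67 and 10.6 (lanes 37 and 38) in C57BL/6 cortex. Gene by gene over both lanes, only Cd74 outnumbered H2-DMa in APP/PS1, with 0.423 (hippocampus) and 0.675 (cortex) H2-DMa reads per Cd74 read. Per read of a chain gene there were 1.37 to 2.18 H2-DMa reads in hippocampus and 2.90 to 6.34 in cortex. In lane 41 of hippocampus H2-Ab1 (9618 reads) and H2-Eb1 (9223) also exceeded H2-DMa (8067). In both knockout comparisons within APP/PS1, all 4 classical genes had a lower log2 ratio than H2-DMa, and this count was 4 under every alternative run. TMM scaling and leaving out ribosomal and mitochondrial reads scale all genes of a group alike, so these alternatives could hardly change the count. For the knockout without amyloid the count was 2, and 0 within lane 38.

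The sequencing lanes split the APP/PS1 groups. In APP/PS1 hippocampus Cd74 was read at 342.9 RPM in lane 41 and 158.6 RPM in lane 42, H2-Eb1 at 120.4 and 18.8 RPM, H2-Aa at 77.02 and 20.8 RPM and H2-Ab1 at 125.5 and 29.6 RPM. In APP/PS1 cortex, which shared these lanes, Cd74 was read at 313.9 RPM in lane 41 and 145.6 RPM in lane 42, and H2-Eb1 at 63.6 and 15.3 RPM. H2-DMa was level between them, at 105.3 and 105.6 RPM in hippocampus and 151.03 and 152.6 RPM in cortex. The full-depth share of cells with Cd74 was also close, at 24.03% and 21.5% in hippocampus and 33.99% and 31.6% in cortex. In APP/PS1-ApoeKO hippocampus H2-DMa was read at 378.6 RPM in lane 35 and 227.4 RPM in lane 36. The sources at hand do not say whether lanes hold different mice, and what sets the lanes apart was not tested. The lower lane still exceeded every lane of the other 4 groups for Cd74, of which the highest was 66.05 RPM in lane 36 of APP/PS1-ApoeKO hippocampus, and for H2-Eb1. It did not for H2-Aa, nor for H2-Ab1 in hippocampus. In cortex H2-Ab1 at 38.1 RPM in lane 42 did exceed those lanes, though not the 39.3 RPM of lane 33, which was outside the comparisons. H2-Ab1 at 29.6 RPM in lane 42 of APP/PS1 hippocampus lay below the 31.7 RPM of lane 36 of APP/PS1-ApoeKO hippocampus and the 31.5 RPM of lane 38 of C57BL/6-ApoeKO cortex. H2-Aa, at 20.8 and 7.58 RPM in lane 42 of APP/PS1 hippocampus and cortex, lay below the 24.8 RPM of lane 36. There 1 cell held 2025 of the 2028 H2-Aa reads.

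Few cells had several chain genes at once. At least 2 of the 3 chain genes were read in 3 cells of APP/PS1-ApoeKO hippocampus, 2 of APP/PS1-ApoeKO cortex, 13 of APP/PS1 hippocampus, 16 of APP/PS1 cortex, 4 of C57BL/6-ApoeKO cortex and 2 of C57BL/6 cortex. These 40 of 1713 cells held 57.2% of all classical reads. By group the share was 51.9% in APP/PS1-ApoeKO hippocampus, 1.31% in APP/PS1-ApoeKO cortex, 76.6% in APP/PS1 hippocampus, 55.8% in APP/PS1 cortex, 25.3% in C57BL/6-ApoeKO cortex and 4.42% in C57BL/6 cortex. All 3 chains were read in 22 of them, 12 in APP/PS1 hippocampus. Cd74 was read in 38 of the 40 cells. The reverse did not hold, since 16.6% of the 1713 cells had Cd74 and 31.2% of those had a chain gene.

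Microglia markers were read in most of the 40 cells, and a few held markers of other cells as well. P2ry12 and Tmem119, receptors and surface proteins of homeostatic microglia, were each read in 37 of 40 cells, Csf1r in 40 and Cx3cr1 in 39. Of dendritic cell markers Flt3 was read in 0 of the 40 (4.12% of the others), Zbtb46 in 1 (1.37%) and Cd209a in 2 (0.359%). Xcr1, Dpp4 and Btla were read in 1 each (0.120 to 0.717% of the others), and the rest of that list in 0. Of monocyte markers Ccr2 was read in 2 of the 40 (2.99% of the others), Plac8 in 4 (0.598%) and Fn1 in 4 (0.538%). Ly6c2, S100a6 and Vcan were read in 1 each, and Chil3 and S100a4 in 0. The border macrophage marker Folr2 was read in 7 of the 40 (6.34% of the others). Mrc1, Cd163, Pf4, F13a1, Ms4a7 and Cbr2 were read in 1 each (0 to 0.956% of the others), and Siglec1 (1.20% of the others), Lyve1 and Cd209f in 0. Markers of another cell type, by the rule above, were found in 4 of 40 cells and in 85 of the 1673 others. The median P2ry12 level was 3260 RPM in the 40 cells and 5369 RPM in the others. The summed interferon response list had a median of 275.4 RPM in the 40 cells and 30.7 RPM in the others. Within APP/PS1 cortex that list stood at 222.3 RPM in the 16 cells and 14.01 RPM in the others, and within APP/PS1 hippocampus at 426 RPM in the 13 cells and 15.7 RPM in the others. The activated microglia list stood at 23109 RPM in the 16 cells and 11597 RPM in the others of APP/PS1 cortex, and at 11173 and 10070 RPM in hippocampus. These cells were chosen by their class II reads, so the values are a description.

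Within every group and at full depth, H2-DMa was read in a larger share of the cells with at least 2 chains than of the rest, with exact intervals that overlap in each. The shares were 38.5% (13.9–68.4) of the 13 cells and 22.3% (17.4–27.9) of the others in APP/PS1 hippocampus, and 50% (24.7–75.3) of the 16 cells and 25.8% (20.9–31.2) of the others in APP/PS1 cortex. The level of H2-DMa over these cells was 248.8 RPM against 98.5 RPM in APP/PS1 hippocampus and 285.8 RPM against 144.5 RPM in APP/PS1 cortex. The other groups had 2 to 4 such cells each, and H2-DMa was read in 2 of 3 in APP/PS1-ApoeKO hippocampus (48.1% of the others), 1 of 2 in APP/PS1-ApoeKO cortex (39.5%), 4 of 4 in C57BL/6-ApoeKO cortex (57.6%) and 2 of 2 in C57BL/6 cortex (54.3%). H2-DMb1 was read in 46.2% and 25.8% of these and the other cells of APP/PS1 hippocampus, and in 56.3% and 27.8% in APP/PS1 cortex. Pearson correlations of log2(RPM + 1) over the cells of a group lay between -0.07 and 0.18 for H2-DMa with each classical gene, whereas H2-Aa with H2-Eb1 averaged 0.473 over the groups and reached 0.759. H2-DMa and H2-DMb1, partners in 1 protein, had a mean correlation of 0.0419. Cells of a group share their libraries and lanes, and counts of these genes in single cells are sparse.

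**Figure D4:**
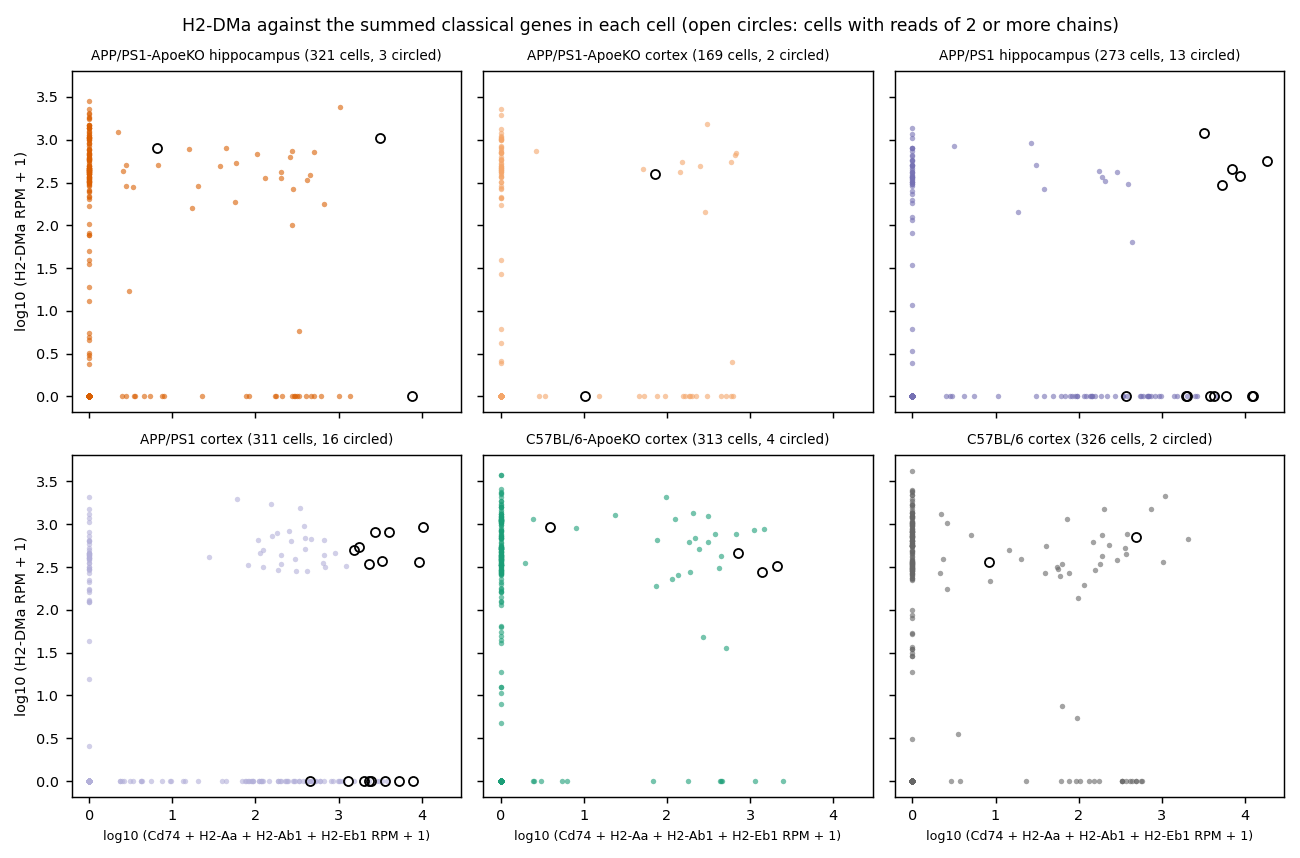
H2-DMa level against the summed level of the classical genes in each cell, both as log10(RPM + 1), by group; open circles are cells with reads of at least 2 chain genes. The circled cells number 13 in APP/PS1 hippocampus and 16 in APP/PS1 cortex and lie both with and without H2-DMa reads.

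Concentration differed as well. Of the Cd74 reads, 50% were held by 3 cells of APP/PS1-ApoeKO hippocampus, 4 of APP/PS1-ApoeKO cortex, 5 of APP/PS1 hippocampus, 10 of APP/PS1 cortex, 5 of C57BL/6-ApoeKO cortex and 4 of C57BL/6 cortex. For H2-DMa they were held by 33 and 16 cells of APP/PS1-ApoeKO hippocampus and cortex, 15 and 22 of APP/PS1 hippocampus and cortex, 40 of C57BL/6-ApoeKO cortex and 44 of C57BL/6 cortex.

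**Figure D5:**
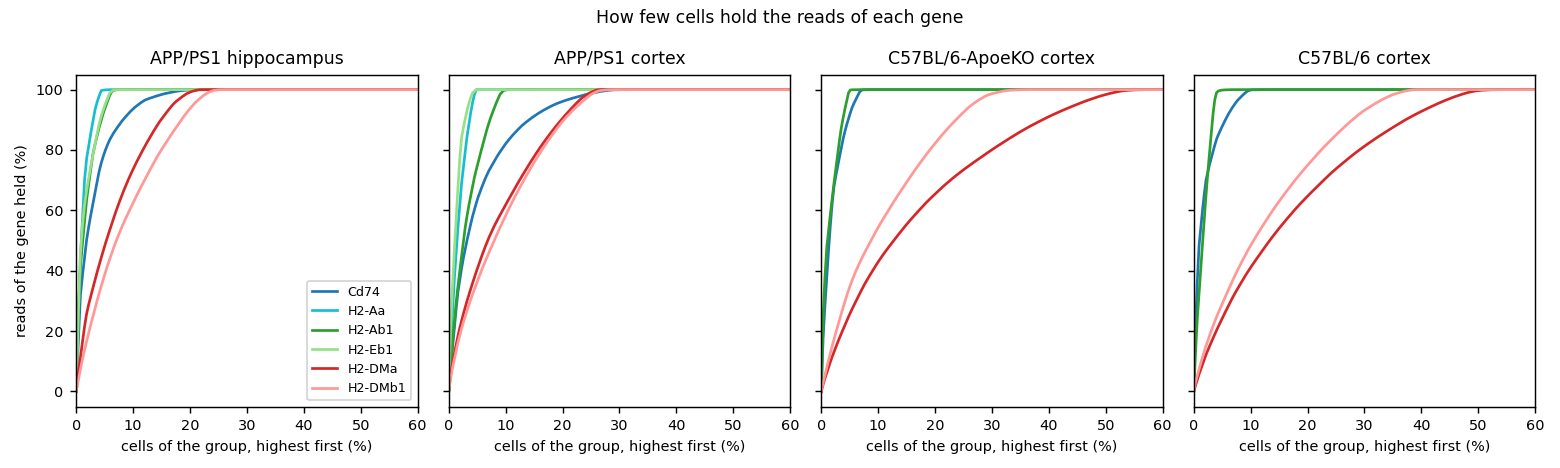
Share of each gene's reads (%) held by the cells of a group, ordered by their reads of the gene, against the share of cells (%), in 4 groups; H2-Aa and H2-Eb1 are drawn only for the APP/PS1 groups. The curves of the chain genes reach the top within fewer cells than those of H2-DMa and H2-DMb1, where 15 to 44 cells hold 50% of the H2-DMa reads.

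Genes with the most alike pattern were ranked by the mean over groups of the correlation over cells, among 8439 genes read in at least 5% of cells. With the mean of the classical genes these were H2-Q6 (0.194), the class I heavy chain H2-K1 (0.193), the cathepsin inhibitor Cst7 (0.192), the class I heavy chain H2-D1 (0.187) and H2-Q7 (0.184). With H2-DMa they were Actb (0.155), F11r (0.151), the LPS coreceptor Cd14 (0.146), Itm2b (0.144) and the lysosomal protease Ctsz (0.137). In a split by Cst7, chosen after its correlation was seen, Cd74 was read at full depth in 58.02% (46.5 to 68.9) of the 81 APP/PS1 cortex cells with Cst7 and in 23.9% (18.6 to 29.96) of the 230 without it. It was read in 54.3% (36.6 to 71.2) of 35 cells with Cst7 and 18.1% (13.4 to 23.6) of those without it in APP/PS1 hippocampus. In C57BL/6-ApoeKO cortex the shares were 25.6% of 39 cells with Cst7 and 6.20% of the others. In APP/PS1-ApoeKO hippocampus they were 23.7% of 38 cells with Cst7 and 8.48% of the others. In APP/PS1-ApoeKO cortex Cd74 was read in 1 of 25 cells with Cst7 (0.101 to 20.4%) and in 14.6% (9.26 to 21.4) of the others. Among cells without Cst7, the Cd74 level was 26.2 RPM in APP/PS1-ApoeKO cortex against 159.3 RPM in APP/PS1 cortex, and it was 19.7 RPM in APP/PS1-ApoeKO hippocampus against 234.6 RPM in APP/PS1 hippocampus.

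The rest of the pathway gave few ratios past 2-fold. Of 41 further genes of class II chains, peptide processing, turnover, promoter factors, signals upstream of Ciita and costimulation, 37 to 38 had 1 RPM in a comparison. In APP/PS1-ApoeKO against APP/PS1 cortex 4 of 38 were at least 2-fold higher (Cd80, H2-DMb2, March8, Pdcd1lg2) and 1 lower (Rfxap), and in hippocampus 4 higher (H2-DMb2, Jak2, Nfyc, Pdcd1lg2) and 1 lower (Cd274). Among all genes 18.9% were higher and 12% lower in cortex, and 14.6% and 10.1% in hippocampus, so that the pathway's shares did not exceed the background. For the knockout without amyloid these counts were 1 higher (Rfxap) and 0 lower, and for amyloid with Apoe 3 higher (Cd274, Cd83, Rfxap) and 2 lower (Cd80, H2-DMb2). Amyloid without Apoe had 0 higher and 1 lower (Rfxap). In hippocampus against cortex they were 1 higher (Rfxap) and 1 lower (Cd274) in APP/PS1-ApoeKO, and 0 higher and 1 lower (H2-DMb2) in APP/PS1. The median log2 ratio of these genes was 0.0946 for the knockout in APP/PS1 cortex and 0.0517 in hippocampus, where all genes had 0.214 and 0.0774.

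H2-DMb2, the near copy of H2-DMb1, was read at 24.2 and 16.97 RPM in APP/PS1-ApoeKO hippocampus and cortex, 0.782 and 6.03 RPM in APP/PS1 hippocampus and cortex, 14.4 RPM in C57BL/6-ApoeKO cortex and 18.9 RPM in C57BL/6 cortex, lowest in both APP/PS1 groups, as H2-DMa was. By lane this did not hold for H2-DMb2, at 7.36 RPM in lane 41 of APP/PS1 cortex and 7.20 RPM in lane 38 of C57BL/6-ApoeKO cortex. In APP/PS1 hippocampus 1 cell held 92.6% of the H2-DMb2 reads. H2-Oa, a chain of the H2-O pair that inhibits H2-DM, was read at 45.01 and 46.5 RPM in APP/PS1-ApoeKO hippocampus and cortex, 82.6 and 63.3 RPM in APP/PS1 hippocampus and cortex, 61.95 RPM in C57BL/6-ApoeKO cortex and 73.4 RPM in C57BL/6 cortex. Its ApoeKO levels all lay below the others, as they did for 5.54% of 12703 genes (exact permutation p = 0.1, two-sided, the smallest that 3 against 3 allows). By lane they did not. In lane 37 H2-Oa stood at 66.3 RPM in C57BL/6-ApoeKO cortex and 58.9 RPM in C57BL/6 cortex, and in lane 38 at 57.8 and 86.3 RPM. Lane 42 of APP/PS1 cortex had 53.8 RPM. The partner of H2-Oa, H2-Ob, varied from 93.7 to 118.4 RPM. Ctss, the protease that trims the invariant chain, ran from 12057 to 13842 RPM, and the costimulatory ligand Cd86 from 415 to 445 RPM. H2-Eb2 and H2-Ea-ps had 0 reads.

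Only the 6 group sums replicate a factor, and since animals are not named and groups share lanes, their independence is not known. Apoe genotype, amyloid and tissue were fitted to them as additive terms without interaction. The test was edgeR's quasi-likelihood test over 12703 genes with Benjamini-Hochberg adjustment. A knockout ratio that differs with amyloid adds to the residual spread of this fit. That of Cd74 was -3.30 and -2.45 in APP/PS1 cortex and hippocampus and -0.05 in C57BL/6 cortex. For the Apoe knockout edgeR called 6 genes higher (0.0472%) and 9 lower (0.0708%), and 0 of the 6 members. It had 1169 genes at an unadjusted p under 0.05, while DESeq2 called 695 genes, 2.86% higher and 2.61% lower. Cd74 had a log2 fold change of -2.12 (SE 0.682, edgeR adjusted p = 0.461) and H2-Eb1 of -3.61 (SE 1.15, edgeR adjusted p = 0.456). The DESeq2 adjusted p was 0.177 for Cd74 and 0.000113 for H2-Eb1. H2-DMa had 0.62 (SE 0.277, edgeR adjusted p = 0.584). Without the C57BL/6-ApoeKO sum, or without the C57BL/6 sum, the knockout term rests on the APP/PS1 sums alone. It then stood at -3.04 for Cd74 and -4.88 for H2-Eb1. Without any 1 of the other 4 sums it was nearer to no change, from -1.84 to -1.31 for Cd74 and from -2.60 to -2.59 for H2-Eb1. One of 37 pathway genes was called, the cathepsin inhibitor Cst3, which fell by 0.63 on the log2 scale in the knockout (SE 0.0578, edgeR adjusted p = 0.0347). Cst3 was read at 47125 and 43687 RPM in APP/PS1-ApoeKO hippocampus and cortex, 64258 and 59935 RPM in APP/PS1 hippocampus and cortex, 46132 RPM in C57BL/6-ApoeKO cortex and 71188 RPM in C57BL/6 cortex, so its groups did not overlap. It was not called once any 1 sum was left out.

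For amyloid edgeR called 0 genes (0%), with 663 at an unadjusted p under 0.05, while DESeq2 called 0.756% higher and 0.677% lower. H2-DMa had a log2 fold change of -1.06 (SE 0.336, edgeR adjusted p = 0.909, DESeq2 adjusted p = 0.0257). Over the group sums, APP/PS1 levels with and without Apoe lay below all C57BL/6 levels for H2-DMa and H2-DMb1, as for 8.89% of genes. For H2-Eb1 they lay above, as for 5.60%. By lane this did not hold for H2-DMa, at 378.6 RPM in lane 35 of APP/PS1-ApoeKO hippocampus and 374.2 RPM in lane 37 of C57BL/6 cortex. Nor did it for H2-Eb1, at 0.489 RPM in lane 36 of APP/PS1-ApoeKO hippocampus and 2.11 RPM in lane 37 of C57BL/6 cortex. In APP/PS1-ApoeKO cortex 1 cell held 90.1% of the H2-Eb1 reads. For tissue edgeR called 0 genes (0%), with 436 at an unadjusted p under 0.05, while DESeq2 called 92, 0.472% higher and 0.252% lower. Exact permutation tests of the ApoeKO sums against the others gave p = 0.2 for Cd74, 0.6 for H2-Aa, 0.4 for H2-Ab1, 0.3 for H2-Eb1, 0.3 for H2-DMa and 1 for H2-DMb1, two-sided. For none of the 6 members (0) did the ApoeKO sums lie all above the others, as they did for 11.2% of genes, or all below them.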

How the data were processed

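The count table gives, per the submitters' processing notes and from its values, whole-number read counts per gene and cell, as deposited. Those notes list mm10, featureCounts 1.5.1, Seurat 2.3.1 and STAR 2.5.2 without their roles. In all, 1878 columns matched a well by title. The 1713 whose labelled read total and gene number equal the table's were used: 321 and 169 from APP/PS1-ApoeKO hippocampus and cortex, 273 and 311 from APP/PS1 hippocampus and cortex, 313 from C57BL/6-ApoeKO cortex and 326 from C57BL/6 cortex. A further 165 cells without a labelled depth entered an alternative. A deposited table of natural log values was not used.

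Counts were summed per group and divided by total reads (RPM). Ratios had exact 95% count intervals, shares exact binomial ones. Cells were thinned once to 100000 reads. In comparisons of 1 group against 1 a gene needed 1 RPM in either group, and a group at 0 was given a floor of 3 reads. For the fits and the shares of genes whose sums did not overlap, it needed a mean of 1 RPM over the sums. Sums were fitted with edgeR 4.0.16 and DESeq2 1.42.0 (R 4.3.3), other steps with Python 3.11.15 and scipy 1.17.1. In counts simulated for the knockout term over 6 sums of 12200 genes, edgeR called 16 of 48 genes changed 2-fold, 31 of 49 changed 4-fold, 41 of 49 changed 8-fold, 46 of 50 changed 32-fold and 6 of 12004 unchanged ones. The simulated fold was the same in all knockout sums, with no effect of amyloid or tissue. These rates therefore do not cover genes whose knockout ratio differs with amyloid, such as Cd74. Named genes were the members, fixed pathway lists and the 5 most alike genes of each pattern. Members and lists were chosen with earlier results of these data known. Coordinates are from GENCODE M21, start windows from RefSeq (GRCm38.p6).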

Additional observations from a re-analysis of the deposited data

Results flagged for a closer look

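H2-Aa stood apart in both directions, and these differences between comparisons were not tested. Its log2 ratio for the knockout was -5.398 in APP/PS1 cortex and 2.595 in C57BL/6 cortex, a difference of -7.994. In APP/PS1 hippocampus it was -1.699, a difference of -4.294 from the 2.595 in C57BL/6. For amyloid it was 5.577 with Apoe and -2.416 without Apoe, a difference of 7.994. These values rest on 6 reads in APP/PS1-ApoeKO cortex and 3 reads in C57BL/6 cortex, and the first and last of these differences use the same 4 cortex groups.

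The APP/PS1-ApoeKO cortex cells of lane 33, which have counts but no labelled depth, were outside the comparisons. Their levels were 19.9 RPM for Cd74, 1.20 RPM for H2-Aa, 39.3 RPM for H2-Ab1, 1.54 RPM for H2-Eb1, 318.2 RPM for H2-DMa, 102.01 RPM for H2-DMb1 and 0.228 RPM for Ciita. The used cells of that group, from lane 34, had 22.4 RPM for Cd74, 0.0802 RPM for H2-Aa, 23.9 RPM for H2-Ab1, 1.48 RPM for H2-Eb1 and 236.6 RPM for H2-DMa.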

How the results depend on the processing

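Of 935 values under alternatives, 654 were of single genes, of which 37.9% moved, 22 reversed and 6 came past a threshold. Of the others, which were of main results, 40 moved. No paired analysis was possible because the replicate numbers only name wells, and the lanes that groups share gave values within lanes. For the knockout, 0.118% became 5.47% with DESeq2, 0.0237% without a filter on low counts, 0.244% with every column and 0 to 0.308% with 1 sum left out. For amyloid, 0% became 1.43% with DESeq2 and 0 to 0.00789% with 1 sum left out, and for tissue 0.724% with DESeq2. Members at least 2-fold lower with the knockout in APP/PS1 hippocampus ranged from 2 to 4 with 1 lane left out. For the knockout in C57BL/6 cortex, 2 members were at least 2-fold higher in thinned cells, 0 within lane 37, 3 within lane 38 and 0 to 3 with 1 lane left out. There 1 was at least 2-fold lower without the cell with the most reads and within lane 37, and 0 to 1 with 1 lane left out. The classical genes below H2-DMa numbered 0 within lane 38 and 0 to 3 with 1 lane left out, and H2-Aa stood at -0.03 within lane 37 and from -0.03 to 3.44 with 1 lane left out.

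For amyloid without Apoe, leaving out 1 lane gave 0 to 1 members at least 2-fold lower, 0 to 1 higher and 0 to 1 classical genes below H2-DMa, with H2-Aa from -3.27 to 0.21. For hippocampus in APP/PS1-ApoeKO, 2 members were at least 2-fold higher with every column, without the top cell, without ribosomal and mitochondrial reads, with TMM scaling, with 0.1 RPM added and with 1 lane left out. There 0 to 1 were lower with 1 lane left out, 0 classical genes lay below H2-DMa without cells with markers of other types and 1 to 2 with 1 lane left out, and 2 members had a lower share with every column. For hippocampus in APP/PS1, 2 members were at least 2-fold higher without cells with other markers, 1 with 0.1 RPM added, 1 within lane 42 and 0 to 1 with 1 lane left out.

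In the fits of sums, every column turned H2-DMb1 to 0.02 (knockout) and H2-DMa to -0.12 (tissue). With 1 sum left out, the knockout term ran from -4.64 to 2.21 for H2-Aa and -0.30 to 0.12 for H2-DMb1. The amyloid term ran from -0.13 to 2.82 for Cd74, -4.15 to 10.12 for H2-Aa and -0.47 to 1.96 for H2-Ab1. The tissue term ran from -0.35 to 1.90 for Cd74, -0.44 to 1.02 for H2-Ab1, -0.68 to 2.44 for H2-Eb1, -0.64 to 0.57 for H2-DMa and -0.12 to 0.57 for H2-DMb1. The causes were not tested. Groups of 1 sample, unknown animals and few reading cells limit what depth can resolve.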

Other observations

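In splits by Apoe reads, chosen after the data were seen, Cd74 was read at full depth in 33.4% (95% exact interval 28.01 to 39.2) of the APP/PS1 cortex cells with Apoe and in 6 of the 24 (9.77 to 46.7%) without it. In APP/PS1 hippocampus the shares were 24.3% (18.9 to 30.3) of the cells with Apoe and 13.2% (4.41 to 28.1) of 38 without it. In C57BL/6 cortex they were 14.6% (8.39 to 22.9) of the cells with Apoe and 10.8% (7.02 to 15.6) of those without it. There H2-DMa was read in 60.2% (50.1 to 69.7) of the cells with Apoe and 52.02% (45.2 to 58.7) of those without it. In each of these pairs the intervals overlap.

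In a split by Cd74 reads, likewise chosen after the data were seen, H2-DMa was read in 76.9% (60.7 to 88.9) of the 39 C57BL/6 cortex cells with Cd74 and in 51.6% (45.6 to 57.5) of those without it. In APP/PS1 hippocampus the shares were 24.2% (14.2 to 36.7) of 62 cells with Cd74 and 22.7% (17.3 to 29.01) of those without it.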
